A study of Mus musculus with 7 samples.

Results

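NAD salvage genes and sirtuins were examined for binding of the clock factors BMAL1 and REV-ERBα and of RNA polymerase II (RNAP2) in mouse skeletal muscle. The 7 genes were *Nampt*, *Nmrk1*, *Nmrk2*, *Nmnat1*, *Nmnat3*, *Sirt1* and *Sirt3*, out of 21938 protein-coding genes of the mm10 (GRCm38) annotation. Peaks were assigned to a gene when they overlapped the gene body or lay within 10 kb of any of its transcription start sites (TSSs), and this stretch is called the window of the gene. The windows held 123 of the 527903 peaks in 6 lists. BMAL1 contributed 11 (replicate 1) and 28 (replicate 2), REV-ERBα 11 and 15, RNAP2 34 and 24.

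Chromatin came from whole gastrocnemius of wild-type male C57BL/6J mice aged 5 months, collected at Zeitgeber time (ZT) 4 for BMAL1 and RNAP2 and at ZT 8 for REV-ERBα, with 2 biological replicates per factor. The mice were kept on a light-dark cycle with standard chow. Peaks of each replicate were called separately over input DNA. The labels list 1 input sample, taken at ZT 4, whereas the methods list 2 input libraries, and which input served which list is not given in the sources used here. No time point other than these and no mutant muscle was examined, so the lists describe where binding was called and not how it changed. BMAL1 and REV-ERBα were also sampled at different hours, and factor and hour cannot be told apart.

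NAD is consumed by enzymes such as the sirtuins and is rebuilt from its breakdown product nicotinamide by a salvage pathway. NAMPT turns nicotinamide into nicotinamide mononucleotide (NMN) and is the rate-limiting step, the nicotinamide riboside kinases NMRK1 and NMRK2 make NMN from nicotinamide riboside, and NMNAT1 in the nucleus and NMNAT3 in mitochondria join NMN to an adenylyl group to complete NAD. SIRT1, mainly nuclear, and SIRT3, mitochondrial, are NAD-dependent deacetylases, and in other tissues *Nampt* is known as a target of CLOCK and BMAL1 through E-boxes, with SIRT1 acting back on the clock.

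Peak strength is given as the −log10 p that Macs2 assigned at the summit, where a larger value means a stronger peak, and as fold enrichment over input. The lists of BMAL1 differed most in length, by 5.11 times. Weak peaks filled the clock factor lists, since 86.2% and 93.6% of BMAL1 peaks and 73.8% and 73.1% of REV-ERBα peaks had a −log10 p under 3, against 40.0% and 85.0% of RNAP2 peaks. RNAP2 had a region in both replicates at 7 of 7 muscle fibre markers, with strongest peaks between 5.69 and 131 in replicate 1 and between 2.60 and 46.8 in replicate 2. The same held for 2 of 9 markers of immune, endothelial, fat, fibroblast and liver cells (*Cd68* and *Col1a1*), and which cells gave a peak in whole muscle was not tested.

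A pair of stretches carried the clearest peaks at the 7 genes and are shown first. Upstream of *Nmrk2*, the REV-ERBα summits of the replicates fell 461 and 275 bp before the TSS, and 11 bases around each are in capitals in the reference sequence (mm10, read along the strand of the gene).
*Nmrk2*, REV-ERBα summits, chr10:81202301-81202537, minus strand: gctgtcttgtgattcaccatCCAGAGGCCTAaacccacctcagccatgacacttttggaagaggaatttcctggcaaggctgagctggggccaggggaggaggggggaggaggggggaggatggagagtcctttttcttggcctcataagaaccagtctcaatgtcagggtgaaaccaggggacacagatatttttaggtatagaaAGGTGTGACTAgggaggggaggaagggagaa
This stretch lay outside the annotated exons of *Nmrk2*, and exons of other genes were not compared. The motifs searched on both strands were CACGTG, the canonical E-box, then CACGTT, a variant of it, then CAGCTG, the E-box of myogenic factors, and AGGTCA, the half-site of nuclear receptors such as REV-ERBα, alone or as a direct repeat with 2 bases between its copies (DR2). None of them was found within 100 bp of either summit.

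The promoter of *Sirt1* carried the strongest RNAP2 summits at a start site of the 7 genes, and its reference sequence just before the first exon holds 2 canonical E-boxes, CACGTG, shown in capitals.
*Sirt1*, promoter, chr10:63339051-63339250, minus strand: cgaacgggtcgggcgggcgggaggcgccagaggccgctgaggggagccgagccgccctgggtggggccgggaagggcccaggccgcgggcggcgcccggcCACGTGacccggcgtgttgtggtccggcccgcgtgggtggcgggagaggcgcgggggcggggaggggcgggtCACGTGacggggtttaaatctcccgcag
The E-boxes began 43 and 115 bp before the TSS. Both lay in the RNAP2 peak of either replicate and in no peak of BMAL1 or REV-ERBα.

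The other E-boxes that lay within 1 kb of a TSS of the 7 genes, or inside a BMAL1 or REV-ERBα peak of their windows, are shown next. Each has 12 bases to either side, with the E-box in capitals. Exons were compared for the 7 genes only, so an intron named for *Atcayos* or *Psmd13* rests on the span of that gene.
*Nampt*, first intron, chr12:32821063-32821092, plus strand: ctagggatcattCACGTGcctgccccctgg
*Nmrk2*, downstream, intron of *Atcayos*, chr10:81197011-81197040, minus strand: ctgtggcatgttCACGTGccccccccacac
*Nmrk2*, 3′ untranslated region, chr10:81199243-81199272, minus strand: catgtccccacaCACGTGcagtgggcacgg
*Nmrk2*, coding exon, chr10:81199647-81199676, minus strand: ctgtttgatggtCACGTGtggcccatgtac
*Nmrk2*, upstream, inside *Atcay*, chr10:81210535-81210564, minus strand: attcccatggaaCACGTGcagctgccagac
*Nmnat3*, first exons, chr9:98296805-98296834, plus strand: acctaccaggccCACGTGactctcgggggc
*Nmnat3*, past the first exons, chr9:98297043-98297072, plus strand: tccagcgattgtCACGTGtagcgtgctgcc
*Sirt3*, exon by an internal TSS, chr7:140876582-140876611, minus strand: tgcttgtgccacCACGTGcagctgagaggt
*Sirt3* window, intron of *Psmd13*, chr7:140885733-140885762, minus strand: ctgtggacacacCACGTGtgtcaaatgctg
Of these, 4 lay in a BMAL1 peak of replicate 2, and none lay in a BMAL1 peak of replicate 1. The 4 were those in the 3′ untranslated region and 5.02 kb downstream of *Nmrk2*, in its upstream window and inside *Psmd13*.

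Binding was first compared across the 7 genes by asking which of them had a region with a peak in both replicates, where peaks sharing at least 1 bp were merged. Over the genome these were few beside the lists: 2742 from 34737 and 177669 BMAL1 peaks, and 1263 from 28881 and 29934 REV-ERBα peaks. RNAP2 had 10752 from 87861 and 168821 peaks. REV-ERBα had such a region at 1 of 7 genes (*Nmrk2*), beside 4.44% of all protein-coding genes. BMAL1 had one at 2 of 7 genes (*Nmrk2* and *Sirt3*), beside 6.81%. RNAP2 had one at 6 of 7 genes, all but *Nmnat1*, beside 41.1%. Sites listed at least 3 times among the 4 clock factor lists occurred at 1 of 7 genes (*Nmrk2*), beside 1.62%. Of the 6 genes with an RNAP2 region, 2 had a BMAL1 and 1 a REV-ERBα region, where 10.3% and 8.5% of all genes with an RNAP2 region did. Counts over so few genes were read as descriptions, and no test was made on them.

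Single lists were less selective. At least 1 peak lay in the window of 6 of 7 genes for BMAL1 replicate 1 and of 7 of 7 for replicate 2, where 38.2% and 84.4% of all genes had one. For REV-ERBα the counts were 2 and 4 genes, beside 38.7% and 40.1%, and for RNAP2 they were 7 and 7 genes, beside 76.9% and 86.5%. Windows of the 7 genes had a median length of 30.5 kb, and those of all genes one of 30.2 kb. Peaks stood closest together at *Nmrk2*, which has the shortest window and held 3 and 6 BMAL1, 5 and 7 REV-ERBα and 11 and 7 RNAP2 peaks. Without *Nmrk2*, BMAL1 peaks came to 2.29 and 6.29 per 100 kb of window in replicates 1 and 2, against 1.27 and 6.52 per 100 kb of genome, and REV-ERBα peaks to 1.72 and 2.29 against 1.06 and 1.1.

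**Figure D1:**
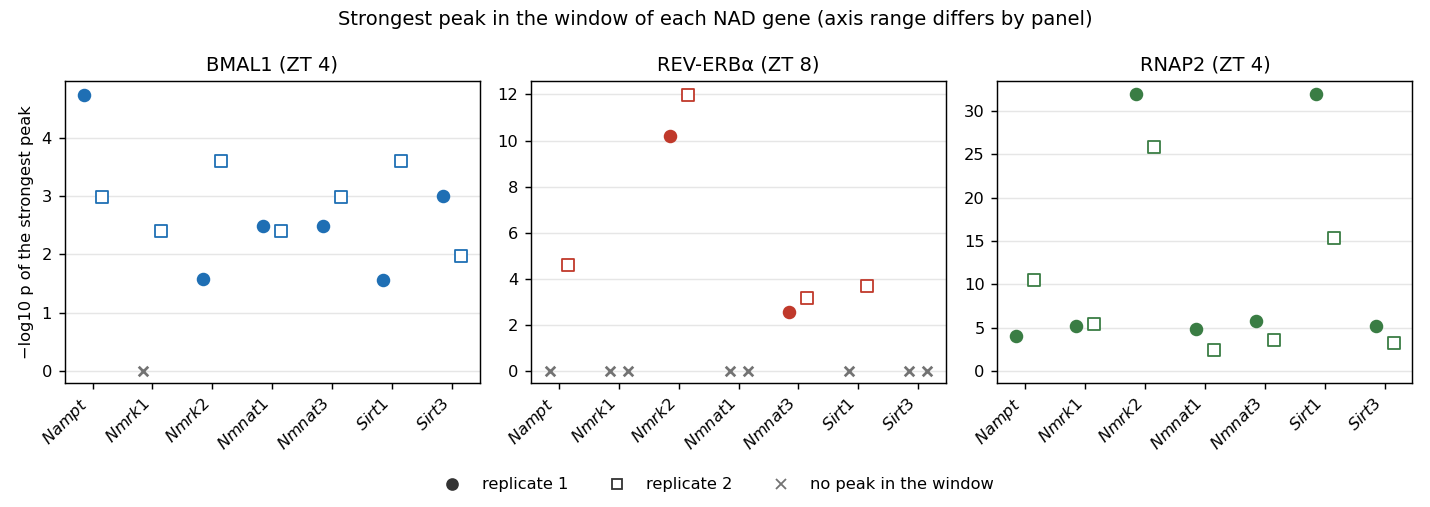
Strongest peak in the window of each NAD gene (y axis, −log10 p from Macs2, with a range of its own in each panel) for replicate 1 (filled circles) and replicate 2 (open squares) of BMAL1, REV-ERBα and RNAP2, with crosses where a list had no peak. REV-ERBα stood at 10.2 and 12.0 at *Nmrk2* and at 4.61 or less elsewhere, and no BMAL1 peak passed 4.74.

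**Figure D2:**
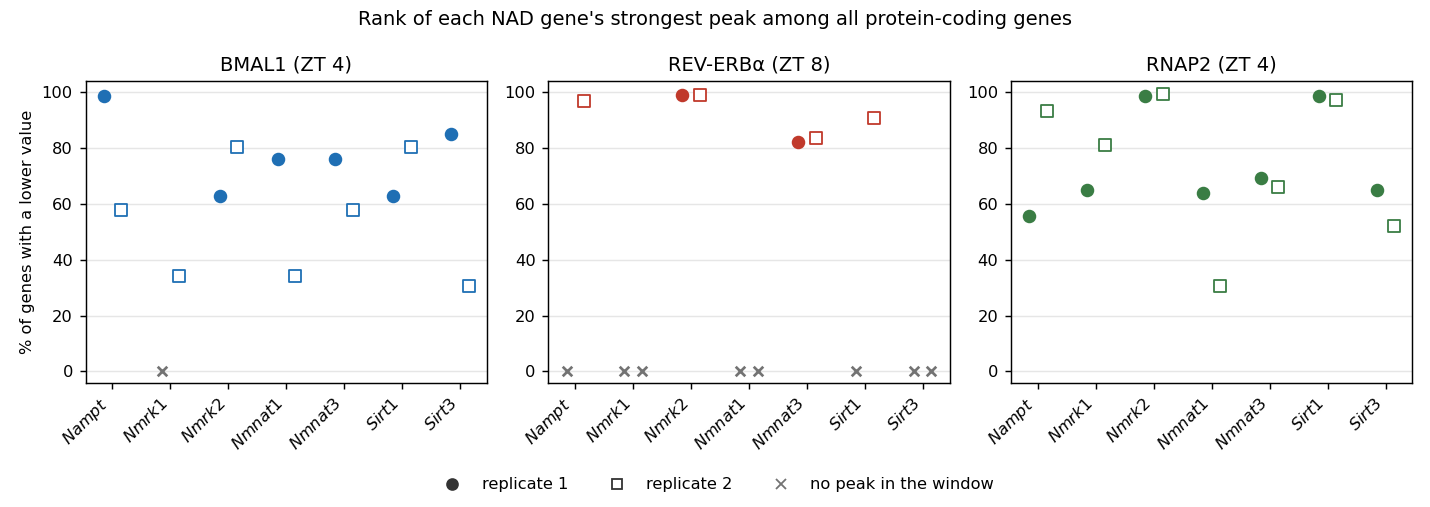
Share of the 21938 protein-coding genes (y axis, percent) whose strongest peak in a list was lower than that of each NAD gene, with replicate 1 as filled circles, replicate 2 as open squares and crosses where a list had no peak. Both replicates placed *Nmrk2* at 99.0% for REV-ERBα and *Nmrk2* and *Sirt1* at 97.2% or more for RNAP2. At other genes the replicates were apart, such as *Nampt* (98.5% and 57.8%) and *Sirt3* (84.9% and 30.6%) for BMAL1. For RNAP2 they placed *Nampt* at 55.8% and 93.4%.

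In the plots of strongest peaks and of ranks, both replicates placed *Nmrk2* high for REV-ERBα, and *Nmrk2* and *Sirt1* high for RNAP2. The replicates were apart at several genes. For BMAL1 they placed *Nampt* at 98.5% and 57.8%, *Sirt3* at 84.9% and 30.6% and *Nmnat1* at 75.9% and 34.0%. For RNAP2 they placed *Nampt* at 55.8% and 93.4% and *Nmnat1* at 63.8% and 30.6%. BMAL1 values took few levels: the strongest peaks of *Nmrk2* and *Sirt1* shared a −log10 p of 3.60 in replicate 2, those of *Nampt* and *Nmnat3* shared 2.98, and those of *Nmrk1* and *Nmnat1* shared 2.40, a value carried by 22.9% of that whole list. No BMAL1 peak of the 7 genes reached a q of 0.05, and only 92 of 34737 and 36 of 177669 did in the whole lists. REV-ERBα had 2 such peaks in either list, beside 324 of 28881 and 423 of 29934. RNAP2 had 15 and 6, beside 10992 of 87861 and 3622 of 168821.

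*Nampt*, which encodes the rate-limiting enzyme of salvage, spans chr12:32819545-32853349 on the plus strand and has 3 annotated TSSs. RNAP2 had 1 region in both replicates there, chr12:32819965-32821006, where replicate 1 reached a −log10 p of 4.08 and replicate 2 one of 10.5, at fold enrichments of 3.29 and 5.59. Its summits fell 99 and 203 bp past the second TSS, which starts the transcript whose first exon covers chr12:32820335-32820626. The replicates differed in rank, with 55.8% of genes lower in replicate 1 and 93.4% in replicate 2.

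BMAL1 had 3 peaks in each list at *Nampt*, and none overlapped between the replicates, as with most BMAL1 peaks of the genome. In replicate 1 their −log10 p was 2.31, 4.74 and 1.76, and the strongest lay in an intron 28026 bp past the last TSS, at chr12:32848645-32849135. Only 1.64% of peaks in that list were at least as strong. In replicate 2 the values were 2.98, 1.51 and 2.98, and the peak nearest to a TSS ended 4984 bp before it. In replicate 1 the nearest peak began 10282 bp past the last TSS, inside the gene. No BMAL1 peak of either list overlapped a start site of *Nampt*.

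REV-ERBα had no peak at *Nampt* in replicate 1, where the nearest one lay 55.0 kb from a TSS. Replicate 2 had 1 peak, chr12:32832852-32833339, of −log10 p 4.61 and fold enrichment 3.05, over a coding exon 12.3 kb past the last TSS. Its q did not reach 0.05 (−log10 q 0.456). The *Nampt* window held 9 E-boxes, and none fell in any peak of the 6 lists. The one nearest to a TSS, printed above, began 274 bp past the third TSS and lay just outside the RNAP2 region.

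*Nmrk2* encodes the riboside kinase that is enriched in striated muscle and was the one gene of the 7 with regions of all 3 factors. It is short, at chr10:81198170-81202051 on the minus strand, with a single TSS, and *Atcayos*, a noncoding gene transcribed in the opposite direction, runs across it. At its promoter REV-ERBα peaked at a −log10 p of 10.2 and 12.0, with fold enrichments of 4.60 and 5.24 and −log10 q values of 5.50 and 7.19. High values came from either replicate, and 0.526% and 0.464% of the peaks in the lists were at least as strong. The merged region, chr10:81197375-81205418, was 8.04 kb wide and covered the whole gene, and it ranked 129 of 1263 REV-ERBα regions by the lower of its 2 values.

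The other REV-ERBα regions lay in the window. The one downstream of the gene, chr10:81193898-81196671, had 6.39 and 6.28, with its summits 6636 and 7495 bp past the *Nmrk2* TSS and 724 and 53 bp from the TSS of *Atcayos*. It also reached a q of 0.05 in both lists (−log10 q 1.96 and 1.89). The one upstream, chr10:81206121-81207300, had 4.15 and 3.75, and the last, chr10:81192712-81193390, had 1.34 and 2.52. Within 1 kb of a TSS, *Nmrk2* was the one gene of the 7 with a REV-ERBα region in both replicates, beside 2% of all genes. Over the whole window, where 4.44% of all genes had a region, it also kept a lower −log10 p of at least 3 (2.47% of all genes) and a q of 0.05 in both lists (1.37%).

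BMAL1 had 2 regions at *Nmrk2*, both inside the wide REV-ERBα region and both weak. The first, chr10:81200331-81202236, had values of 1.33 and 3.60 and summits 1690 and 817 bp into the gene, 873 bp apart. Only its replicate 2 peak covered the TSS, and the replicate 1 peak began 620 bp past it. The second, chr10:81198552-81199356, lay over the 3′ untranslated region with 1.58 and 1.87, and its summits were 24 bp apart. By the lower value they ranked 2738 and 2109 of 2742 BMAL1 regions. Only *Nmrk2* among the 7 genes had a BMAL1 region within 1 kb of a TSS, beside 0.843% of all genes, and no BMAL1 region anywhere in the 7 windows kept a lower value of at least 3, beside 0.356% of all genes over the whole window.

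**Figure D3:**
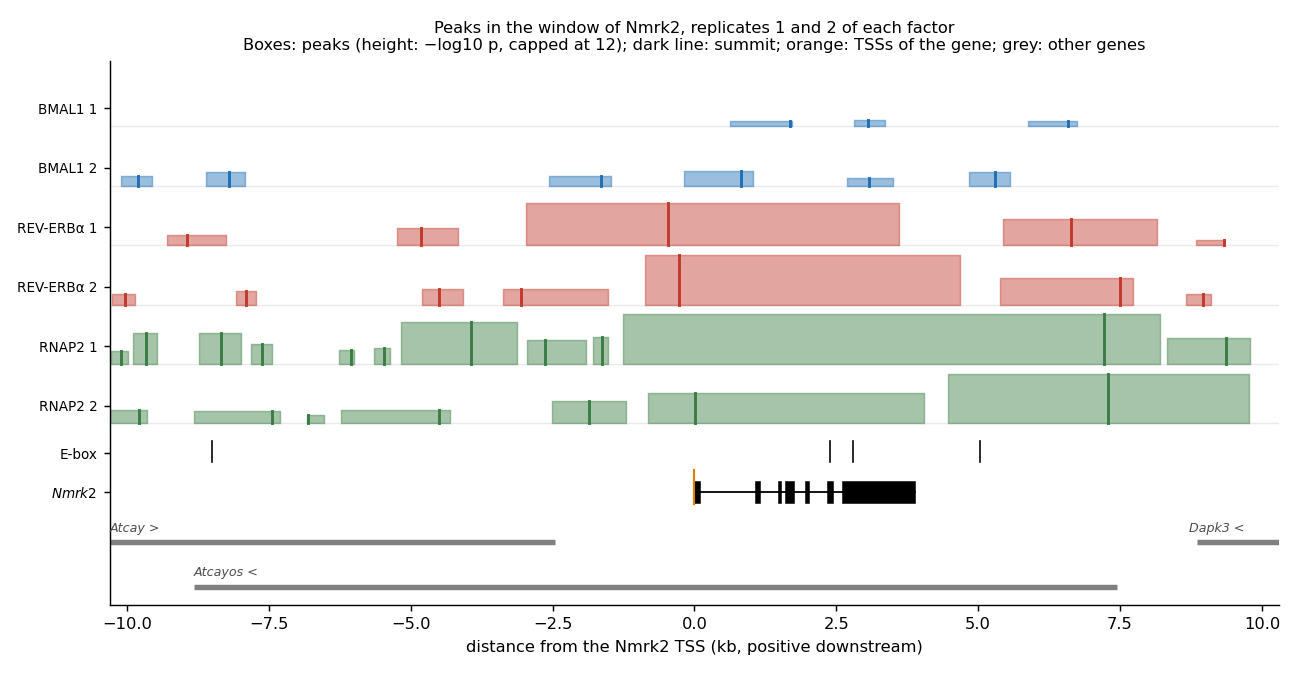
Peaks in the window of *Nmrk2* against distance from its TSS (x axis, kb, positive downstream), one row per replicate of BMAL1 (blue), REV-ERBα (red) and RNAP2 (green). Box height is −log10 p, capped for drawing, dark lines mark summits, black ticks E-boxes, and grey bars other genes with an arrow for direction relative to *Nmrk2*. The REV-ERBα summits of both replicates sit just upstream of the TSS, at −461 and −275 bp, and the tallest RNAP2 summits sit 7222 and 7282 bp downstream, by the start of *Atcayos*.

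RNAP2 covered the locus almost without a gap. The main region, chr10:81192259-81205008, was 12.8 kb wide with a −log10 p of 32.0 and 25.9 and fold enrichments of 11.5 and 10.6. Its summits were not at *Nmrk2*: they lay 7222 and 7282 bp past the *Nmrk2* TSS and 138 and 78 bp past that of *Atcayos*. Replicate 2 had a separate peak over the *Nmrk2* TSS, of −log10 p 7.22 and fold enrichment 4.66 with its summit 9 bp into the gene. In replicate 1 one peak of 9.46 kb spanned both starts. Its value was that of the summit by *Atcayos*, and the list gave no separate value at the *Nmrk2* TSS.

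The map of the *Nmrk2* window shows that peaks of all factors were wide and dense over the same stretch. The main RNAP2 region took in 94.9% of the promoter region of REV-ERBα and all of both BMAL1 regions. Whether the spread of peaks across this stretch had a part in the overlap of the factors was not tested. The 3 sites listed at least 3 times among the clock factor lists were chr10:81193898-81197206 and chr10:81197375-81205418, with peaks in 4 of 4, and chr10:81209778-81211338, without one in BMAL1 replicate 1. The last lay upstream, nearer to the TSS of *Atcay*. Such sites were joined through chains of overlapping peaks. In the first, the BMAL1 peaks of the replicates shared no base, and in the last the REV-ERBα peaks shared none.

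*Nmrk1*, the more widely expressed riboside kinase, lies at chr19:18631950-18652428 on the plus strand. RNAP2 had 1 region, chr19:18631577-18632067, with a −log10 p of 5.23 and 5.39 and fold enrichments of 3.37 and 3.58. Values of the replicates were close, and both passed a q of 0.05. Its summits lay 210 and 230 bp upstream of *Nmrk1*, at 0 and 2 bp from the TSS of *Ostf1*, which is transcribed away from *Nmrk1*. RNAP2 on the paired start sites cannot be told apart from these peaks.

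REV-ERBα had no peak in the *Nmrk1* window in either list, and the nearest lay 24.9 and 47.4 kb from a TSS. BMAL1 had none in replicate 1 and 4 in replicate 2, the strongest at 2.40. The nearest BMAL1 peak was 120 kb away in replicate 1 and 3685 bp away in replicate 2.

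*Nmnat1*, the nuclear NMN adenylyltransferase, lies at chr4:149467572-149485202 on the minus strand and was the one gene of the 7 without an RNAP2 region in both replicates. Replicate 1 had a promoter peak, chr4:149484684-149485460, of −log10 p 4.88 and fold enrichment 3.68. Replicate 2 had 1 peak in an intron, with 2.39 and its summit 2889 bp past the TSS. The start of *Lzic*, on the other strand, is 27 bp from that of *Nmnat1*, so the promoter peak covers both. REV-ERBα had no peak in the window, and BMAL1 had 1 peak in each list (2.48 and 2.40) that lay on opposite sides of the TSS.

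*Nmnat3*, the mitochondrial enzyme, has the longest window, 143 kb around chr9:98287435-98420438 on the plus strand. RNAP2 had a region over its second group of start sites, chr9:98296597-98297054, with a −log10 p of 5.81 and 3.57, fold enrichments of 3.97 and 2.86, and summits 119 and 134 bp past a TSS and 15 bp apart. REV-ERBα had 6 peaks in replicate 1 and 3 in replicate 2, up to 2.54 and 3.18. None was shared, as with most REV-ERBα peaks of the genome. Among them was 1 promoter peak, in replicate 2, with 1.80 and its summit 790 bp before a TSS. BMAL1 had 2 and 7 peaks, up to 2.48 and 2.98, all in introns. None was shared, as with most BMAL1 peaks, and the nearest lay 42.9 and 31.9 kb from a TSS.

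**Figure D4:**
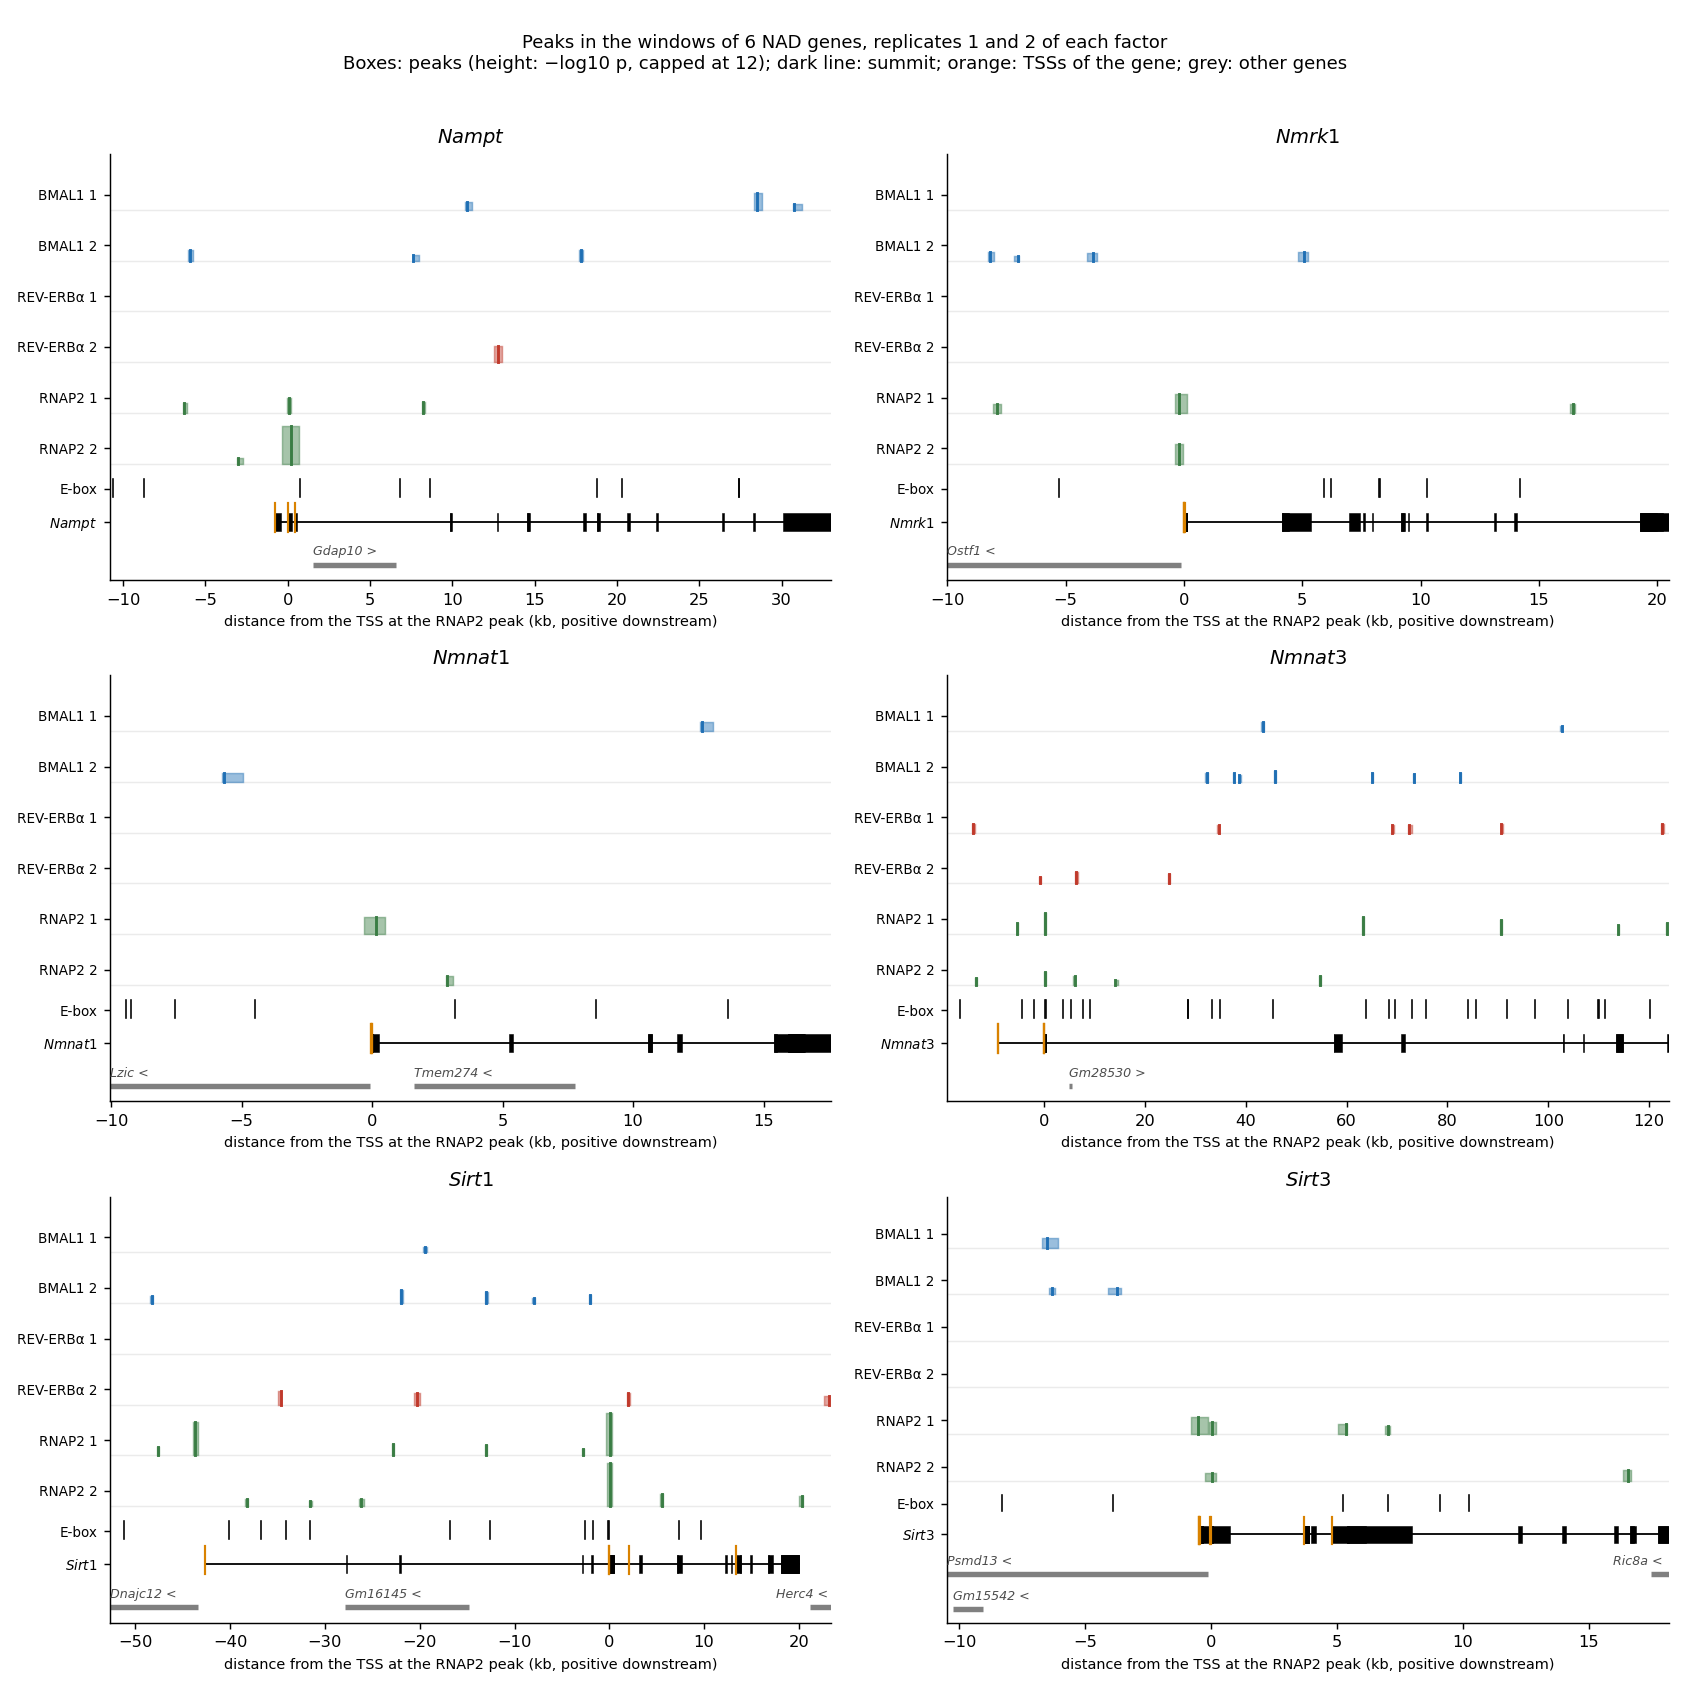
Peaks in the windows of the 6 other NAD genes against distance from the TSS at the RNAP2 peak (x axes, kb, positive downstream, with a scale of their own), drawn as in the map of *Nmrk2*. RNAP2 peaks of both replicates lie at or just before the TSS for all but *Nmnat1*. At *Nmrk1* the replicate 2 peak ends 47 bp before it. REV-ERBα rows are empty in both replicates for *Nmrk1*, *Nmnat1* and *Sirt3*, and the one BMAL1 region in both replicates lies about 6 kb upstream of *Sirt3*.

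*Sirt1* lies at chr10:63319005-63381704 on the minus strand. Its RNAP2 region, chr10:63338769-63339426, had a −log10 p of 32.0 and 15.3 and fold enrichments of 10.6 and 6.25. It was narrow, 658 bp, and its summits fell 29 and 30 bp past the TSS, 1 bp apart. It ranked 378 of 10752 RNAP2 regions by the lower value, and both replicates passed a q of 0.05 (−log10 q 27.3 and 10.8). Near the start of the longest annotated transcript, 42.7 kb further upstream, replicate 1 had a peak of 9.30 whose summit was nearer to *Dnajc12*, and replicate 2 had none.

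REV-ERBα had no peak at *Sirt1* in replicate 1 and 4 in replicate 2, of 2.53, 3.18, 3.18 and 3.68. One of these, chr10:63336831-63337173, covered an internal TSS, with its summit 102 bp before it. The nearest REV-ERBα peak of replicate 1 was 61.1 kb from any TSS of the gene. BMAL1 had 1 peak in replicate 1 (1.57) and 5 in replicate 2 (1.40 to 3.60), none of them shared, as with most BMAL1 peaks. With respect to the promoter E-boxes, the closest BMAL1 peak of replicate 1 was 19.1 kb away and that of replicate 2 was 1.88 and 1.81 kb away.

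*Sirt3* lies at chr7:140863666-140882309 on the minus strand, 105 bp from the divergent start of the proteasome gene *Psmd13*. RNAP2 had a region over the start sites, chr7:140881623-140882625, made of peaks of 5.24 and 3.76 in replicate 1 and of one peak of 2.45 in replicate 2. The stronger peak of replicate 1 sat on the side of *Psmd13*, and the peak of replicate 2 sat 36 bp past an inner *Sirt3* TSS. REV-ERBα had no peak in the window in either list.

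BMAL1 had a region in both replicates in the *Sirt3* window, chr7:140887921-140888567, with a −log10 p of 3.0 and 1.97 and fold enrichments of 2.45 and 2.03. Its summits were 6054 and 5843 bp upstream of *Sirt3* but 1037 and 1248 bp from a TSS of *Psmd13*, inside that gene. Both values were common in their lists, where 26.7% and 48.7% of peaks were at least as strong. When only regions nearest to a TSS of the gene itself were counted, *Sirt3* had no BMAL1 region.

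**Figure D5:**
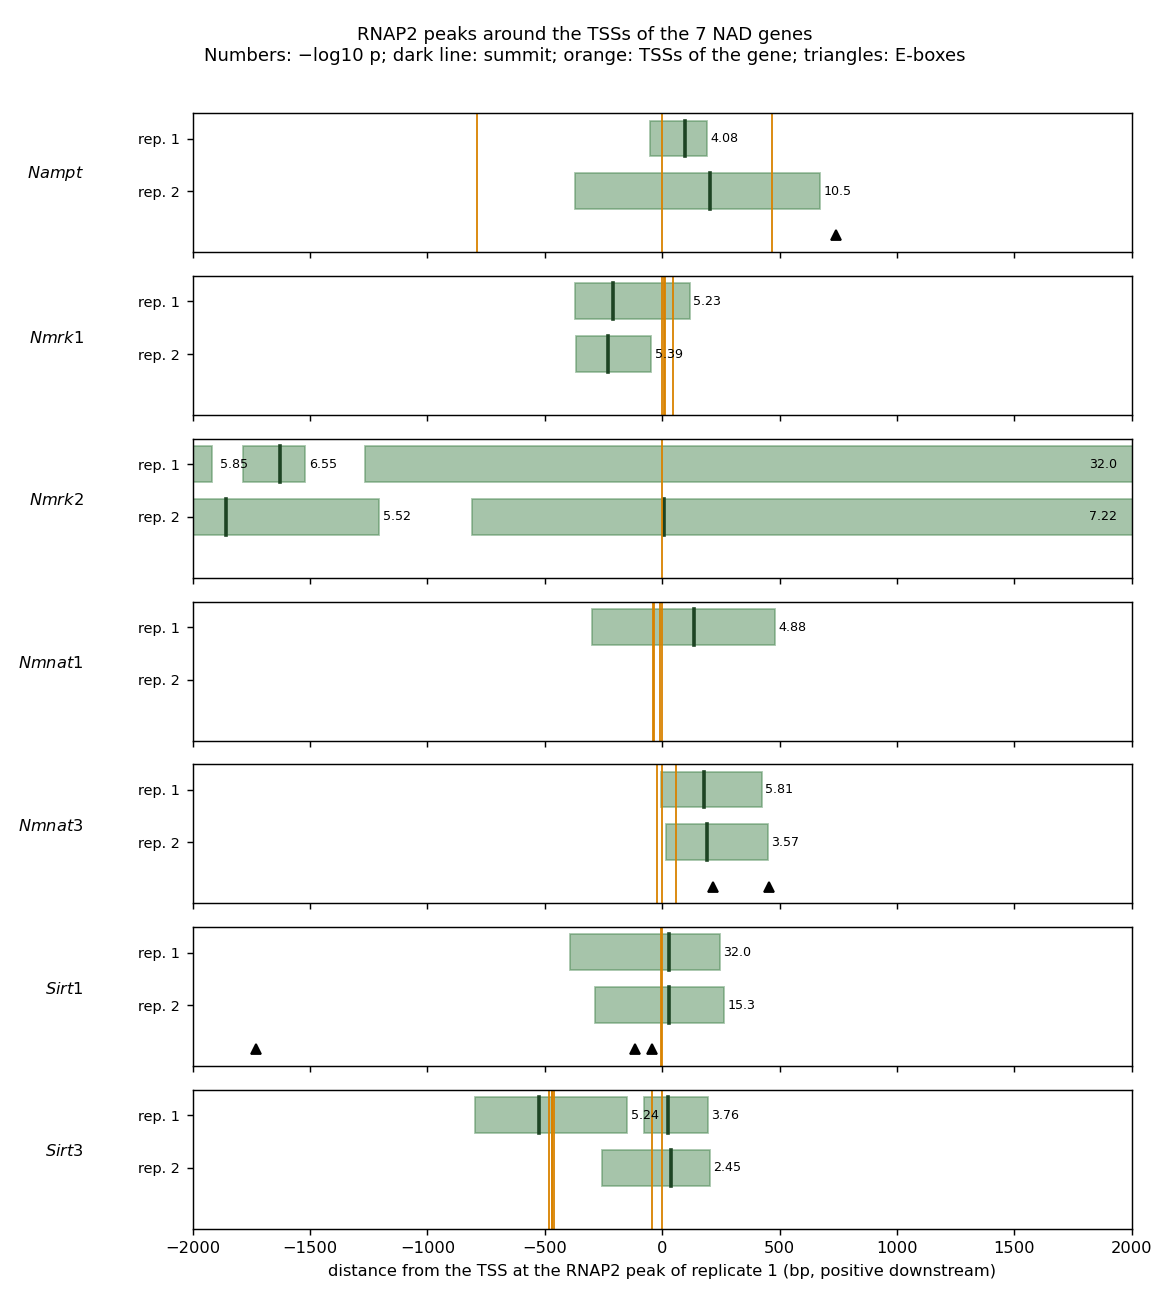
RNAP2 peaks of replicates 1 and 2 around the TSS of each NAD gene (x axis, bp, positive downstream), with summits as dark lines, the −log10 p beside each box, TSSs of the gene in orange and E-boxes as triangles. Summits of the replicates are 1 bp apart at *Sirt1* and 15 bp apart at *Nmnat3*, the summits at *Nmrk1* lie before its TSSs, which only the box of replicate 1 covers, and replicate 2 has no box at *Nmnat1*.

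Across the plot of RNAP2 at start sites, 6 of 7 genes had a region less than 1 kb from a TSS in both replicates, beside 30.5% of all genes. Over the whole window, where 41.1% of all genes had a region, a lower −log10 p of at least 3 was kept by 5 of 7 (*Sirt3* was lost), beside 29.4%, and a q of 0.05 in both lists by *Nmrk1*, *Nmrk2* and *Sirt1*, beside 18.9%. By the lower of the 2 values of the region, the order was *Nmrk2* (25.9), *Sirt1* (15.3), *Nmrk1* (5.23), *Nampt* (4.08), *Nmnat3* (3.57) and *Sirt3* (2.45). For these regions the ranges of the replicates overlapped between *Nmrk2* (25.9 to 32.0) and *Sirt1* (15.3 to 32.0). The range of *Nampt* (4.08 to 10.5) overlapped with *Nmrk1* (5.23 to 5.39) and *Nmnat3* (3.57 to 5.81), and that of *Nmnat3* with *Sirt3* (2.45 to 5.24). The values for *Nmrk2* came from summits at *Atcayos*, so its place in this order is not that of its start site. The only separate value at the *Nmrk2* TSS, 7.22 in replicate 2, lay inside the *Nampt* range and below that of *Sirt1*.

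Position was then compared among factors. The nearest TSS of any annotated gene belonged to the NAD gene itself for 2 of 11 and 6 of 28 BMAL1 peaks, 3 of 11 and 6 of 15 REV-ERBα peaks, and 16 of 34 and 13 of 24 RNAP2 peaks. Summits within 1 kb of a TSS of the NAD gene made up 0 and 1 of the BMAL1 peaks, 1 and 3 of the REV-ERBα peaks and 9 and 6 of the RNAP2 peaks. Most BMAL1 peaks of the 7 genes were thus intronic or upstream and nearer to another gene, counting noncoding genes too. The same shares were not computed over all gene windows, and whether this placing is particular to the 7 genes was not tested.

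The 7 windows held 74 canonical E-boxes on the reference sequence. Of these, 0 lay in a BMAL1 peak of replicate 1 and 4 in a peak of replicate 2 (3 at *Nmrk2* and 1 at *Sirt3*), whereas of 267819 E-boxes in the genome 0.624% and 2.79% did, and 0.0444% lay in peaks of both. By gene there were 9 at *Nampt*, 7 at *Nmrk1*, 4 at *Nmrk2*, 7 at *Nmnat1*, 28 at *Nmnat3*, 13 at *Sirt1* and 6 at *Sirt3*. All 4 at *Nmrk2* lay in RNAP2 peaks of both replicates, at a locus that RNAP2 covered almost without a gap. Over the 7 windows, 9 and 8 of the 74 E-boxes lay in RNAP2 peaks of replicates 1 and 2. In the genome 1.49% and 3% of E-boxes did. Whether E-boxes at *Nmrk2* lay in RNAP2 peaks more often than other sequence there was not tested.

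Within 100 bp of a summit, CACGTG was found in 0 of 11 and 0 of 28 BMAL1 peaks and in 0 of 11 and 0 of 15 REV-ERBα peaks of the 7 genes, where between 1.72% and 2.23% of all peaks in a list held it. AGGTCA was found in 4 and 3 BMAL1 peaks and in 2 and 2 REV-ERBα peaks, where 9.58% and 11.9%, and 11.5% and 11.5%, of all peaks held it. CACGTT occurred in 1 REV-ERBα peak, at *Nmrk2* in replicate 2, where 2.32% and 2.2% of all peaks in the REV-ERBα lists held it. CAGCTG occurred in 1 and 1 BMAL1 peaks, beside 5.78% and 8.79%, and in 0 and 2 REV-ERBα peaks, beside 9.1% and 9.14%. DR2 occurred in none, and in at most 0.0146% of all peaks of a list. With so few peaks these counts describe the letters present and say nothing of which factor bound.

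Promoter sequences of RefSeq (GRCm38), 250 bases before to 50 after a start, were matched for all 7 genes. CACGTG was found in the promoter of *Sirt1*, beside 8.03% of 20150 promoters, AGGTCA in those of *Nampt* and *Nmnat3*, beside 14.4%, and CAGCTG in that of *Nampt*, beside 15.7%. GC content ranged from 49% at *Nmnat3* through 60.7% at *Nmrk2* to 76.3% at *Nampt* and 79% at *Sirt1*, around a median of 57% over all promoters. The *Nmrk2* promoter sequence, chr10:81201988-81202287, held none of these motifs. Both REV-ERBα summits lay just upstream of it, outside the sequence searched here.

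The other 30 genes of NAD metabolism (further synthesis enzymes, transporters, sirtuins, PARPs and NAD-consuming or nicotinamide-clearing enzymes) gave a background within the pathway. RNAP2 had a region in both replicates at 15 of 30, beside 41.1% of all genes, BMAL1 at 1, beside 6.81%, and REV-ERBα at 0, beside 4.44%. The BMAL1 region was at *Pnp*, a purine nucleoside phosphorylase that also cleaves nicotinamide riboside, at chr14:50934259-50934865 with 3.0 and 2.69. Its summits lay 3639 and 3408 bp past a TSS of *Pnp*.

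The highest lower RNAP2 values in this set were at *Sirt4*, *Slc25a51* and *Pnp*. At *Sirt4*, a mitochondrial sirtuin, they were 53.6 and 30.2, but the summits lay 4740 and 5551 bp upstream and by the snRNA gene *Gm24265*. *Slc25a51*, the mitochondrial NAD carrier, had 13.1 and 10.7 with summits 14 and 10 bp past its own TSS. At *Pnp* the values were 7.49 and 11, by the start of *Pip4p1*. With the 7 genes included, *Nmrk2* was the one gene of 37 in NAD metabolism with a REV-ERBα region in both replicates, a count no higher than the 4.44% of all genes would give.

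Genes most like *Nampt* over the 6 lists were found from the summed differences of their percentiles. The 5 nearest were *Nsd1*, *Chd2*, *Orc3*, *Stat3* and *Usp25*, at summed differences of 27.9 to 38.4 percentile points. Since the same lists chose them, their likeness to *Nampt* was built in. Each had no REV-ERBα peak in replicate 1 and a peak in replicate 2 (2.91 to 4.99), and RNAP2 peaks of 3.55 to 7.49 and 7.22 to 15.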

How the data were processed

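ChIP-seq reads were mapped by the authors to mm10 with BWA (given as version 7.12), duplicate and multi-mapping reads were removed, and the replicates of a factor were down-sampled to similar depth. Peaks were called by the authors with Macs2 2.1.1 on each replicate, with input DNA as background and a p-value limit of 0.05, which keeps many weak peaks. The deposited lists give −log10 p and −log10 q values and a fold enrichment ratio at each summit. They hold no read counts, so the depth behind a peak is unknown and no counting interval could be given. The deposited score was not used, and input had no list here.

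Genes and TSSs were taken from GENCODE M21 (GRCm38), and 0 peaks ran past a chromosome end of that build. Regions joined peaks of both replicates that shared 1 bp or more. No test was made, since there were 2 lists per factor, and the replicates show the spread between samples only. Members and gene lists were chosen with earlier results of these data known. Named genes were all 7 members with every list's value, other NAD genes with a BMAL1 or REV-ERBα region or the 3 highest RNAP2 values, neighbours whose TSS was nearer than the member's own, and the 5 genes most like *Nampt*. The code recovered known overlaps on simulated data. Motifs were searched on both strands of the GRCm38.p6 sequence with pysam. Alternatives were stricter p and q values, equal list lengths, other overlaps and windows, and leaving out each replicate; 1 kb windows and nearest-TSS counting were added after the data were seen. One group of cell type markers is not reported here.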

Additional observations from a re-analysis of the deposited data

How the results depend on the processing

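The REV-ERBα region at *Nmrk2* was present under every alternative run, and the count of genes with a region in both replicates stayed at 1 of 7 except with single lists, where it was 2 to 4. The count of genes with a site in at least 3 of 4 clock factor lists stayed at 1 (*Nmrk2*), also without each list. The BMAL1 count of 2 was the least stable: it fell to 0 with peaks of −log10 p of at least 3 and with q of 0.05 or less, and to 1 (*Nmrk2*) with lists of equal length, with the gene body and 1 kb of a TSS, with 1 kb of a TSS alone and with regions nearest to the gene's own TSS. With single lists it was 6 to 7. The RNAP2 count of 6 fell to 3 with q of 0.05 or less and otherwise stayed between 5 and 7. *Nmnat1* gained an RNAP2 region when the window reached 50 kb. With the gene body and 1 kb, the strongest RNAP2 value of *Nmrk2* in replicate 2 was 7.22. Within 50 bp of summits, AGGTCA fell from 7 to 4 BMAL1 and from 4 to 2 REV-ERBα peaks and CAGCTG from 2 to 0 BMAL1 peaks. No paired analysis was possible because the results come from no test and replicate numbers only name the samples. With 2 lists per factor and no reads per peak, a missing peak does not show absent binding.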
